A study of Homo sapiens with 6 samples.

Results

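The RNA levels of 9 genes of the intermediate filament and actin cytoskeleton were examined: VIM (vimentin), PLEC (plectin), FLNA (filamin A), ACTB and ACTG1 (the cytoplasmic actins), MYH9 (the heavy chain of non-muscle myosin IIA), TLN1 (talin-1), VCL (vinculin) and ACTN1 (alpha-actinin-1). They were taken by gene symbol from a table of 62700 genes and were listed with earlier values from these libraries known, so their levels are given as a description. The cells were MKN-45 by their labels, a gastric cancer line of human origin, and carried either a negative control (3 libraries) or an NNMT knockdown (3 libraries). NNMT encodes nicotinamide N-methyltransferase, an enzyme that methylates nicotinamide with S-adenosylmethionine. Poly(A) RNA was harvested 48 h after transfection and sequenced as paired reads of 150 bases. The labels disagree on the transfected RNA, which is siRNA in the treatment protocol and shRNA in the genotype and treatment fields, and on the controls, which the design text describes as untouched.

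Vimentin forms intermediate filaments, the flexible fibres that are typical of mesenchymal cells and also appear in many carcinoma lines. Plectin is a large plakin that ties these filaments to actin and to adhesion sites, and filamin A crosslinks actin filaments and binds the tails of integrins. Non-muscle myosin II pulls on the actin network, while talin couples integrins to actin, vinculin strengthens that link under load, and alpha-actinin-1 bundles the filaments that end there. Many genes of this machinery are known targets of serum response factor (SRF), which binds DNA at the CArG box and is activated by MRTF coactivators when free actin monomer becomes scarce.

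The libraries held 40558680 to 56067484 reads on genes, of which the 9 genes took 1.55% to 1.94%. NNMT had 0, 8 and 12 reads in control replicates 1, 2 and 3 and 2, 8 and 14 reads in knockdown-labelled replicates 1, 2 and 3. With so few reads a knockdown could not be checked, so these 3 are called the knockdown-labelled libraries. Of the 8 epithelial markers all had reads, but at very different levels. KRT19 was the highest at 898 to 1261 CPM (reads scaled to a library total of 1e6), and CLDN4 measured 334 to 447 CPM. EPCAM stood at 17.2 to 40 CPM, CLDN7 at 4.47 to 9.68 CPM and ESRP1 at 0.0481 to 6.88 CPM. Between groups 7 of the 8 had a log2 fold change below 0 (median -0.169). By edgeR with a filter on low counts 0 passed an adjusted p of 0.05. Over all 20250 genes tested, 50.8% lay above 0, the median was 0.00333 and 0% passed. Of 12 gastric and intestinal markers, 8 lay below 1 CPM in all libraries and CDX1, CDX2 and GKN1 had no reads. The gastric mucin and trefoil genes of that list were detected, with MUC6 at 25.7 to 84.1 CPM, MUC5AC at 3.67 to 42.5 CPM, TFF1 at 1.63 to 8.36 CPM and TFF2 at 0.553 to 3.5 CPM. The list summed to 37.3 to 102 CPM in the controls and 42.8 to 104 CPM in the knockdown-labelled libraries. Among markers of other cell types, 4 of 9 fibroblast, 4 of 9 smooth muscle, 4 of 7 endothelial and 5 of 7 leukocyte genes lay below 1 CPM in all libraries. The summed fibroblast markers ranged from 329 to 415 CPM in control and from 338 to 635 CPM in the knockdown-labelled libraries, mostly COL1A1. In the same order the sums were 249 to 296 and 267 to 335 CPM for smooth muscle and 154 to 273 and 128 to 243 CPM for endothelial markers. These were mostly SMTN, at 233 to 324 CPM, and KDR, at 107 to 243 CPM over all libraries. The leukocyte sums were 1.88 to 2.65 and 1.43 to 1.77 CPM. The part of all these markers in the levels below was not tested.

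The actins are close copies, and their sequences show how far reads can tell them apart. The first 60 coding bases are shown 5′ to 3′ because they hold the stretch in which the start of the proteins diverges, with capitals marking the 10 bases at which the genes differ (GENCODE 29 transcripts).
ACTB: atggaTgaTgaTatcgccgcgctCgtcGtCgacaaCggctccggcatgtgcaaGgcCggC
ACTG1: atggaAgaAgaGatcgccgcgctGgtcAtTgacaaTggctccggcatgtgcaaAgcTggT
Over the full coding sequence of 1125 bases the genes differed at 98 bases, which left 91.3% identical, and 94 of 375 codons differed. The longest identical run was 59 bases, shorter than a read of 150 bases. No window of 150 bases of any of the 9 principal transcripts occurred exactly in a transcript of another gene. Of windows of 50 bases, 10.3% of those of ACTB and 3.58% of those of ACTG1 were shared with other genes, among them the pseudogenes ACTBP2 and ACTG1P20. The 12 ACTB pseudogenes held 317 reads over the 6 libraries and the 21 ACTG1 pseudogenes held 1173, or 0.0176% and 0.065% of the reads on ACTB and ACTG1. Reads that aligned to several places were not counted, so both actins can be undercounted.

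Since several of the genes are known SRF targets, promoters were searched for the CArG box, defined as CC, 6 bases of A or T, and GG, a pattern that reads the same on both strands. The RefSeq promoter table (GRCh38.p14) matched 7 of the 9 genes with 10 windows, and ACTB and PLEC had no entry. In the 250 bases before a start site, a box was found in 3 of the 10 windows, against 1.16% of 35116 windows in the table. Of these 10 windows 4 belong to ACTN1, and VIM, MYH9, TLN1 and VCL had 1 window each with no box. As the search began from known SRF targets, the comparison with all windows is a description without a test. The boxes are shown in capitals with 10 bases on each side, on the strand of the gene.
FLNA, chrX:154374709-154374738, minus strand: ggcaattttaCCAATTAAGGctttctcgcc
ACTG1, chr17:81512874-81512903, minus strand: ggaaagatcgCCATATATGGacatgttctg
ACTN1, chr14:68977718-68977747, minus strand: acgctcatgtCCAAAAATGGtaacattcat
The FLNA and ACTG1 boxes both began 94 bases before the start site, and the ACTN1 box began 171 bases before 1 of its 4 listed starts. These are matches of letters in a short window and do not show binding. SRF itself was detected, at 53.6 ± 2.94 CPM in the controls and 54 ± 5.17 CPM in the knockdown-labelled libraries (SD, n = 3 each).

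VIM (ENSG00000026025.16; hg38 chromosome 10, 17228241 to 17237593, plus strand) is the intermediate filament gene of the set. It measured 812, 854 and 777 CPM in control replicates 1, 2 and 3 and 990, 701 and 760 CPM in knockdown-labelled replicates 1, 2 and 3. The highest and the lowest values both came from knockdown-labelled libraries, and the groups overlapped. In bulk RNA, fewer expressing cells and less RNA per cell cannot be told apart. The counted VIM level leaves out part of its reads: 983 of the 1868 bases of its principal transcript, or 52.6%, lie under exons of antisense genes such as VIM-AS1, and reads that overlap several genes were not counted. For the other genes this share was at most 0.47%, although 11.1% of the merged exons of VCL were shared with AP3M1.

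PLEC (ENSG00000178209.17; chromosome 8, 143915153 to 143976734, minus strand) took more reads than all but 7 genes, although 74 genes lay above it per length by mean RPKM. It measured 4374, 4832 and 3554 CPM in control replicates 1, 2 and 3 and 3959, 4166 and 4162 CPM in the knockdown-labelled ones. Control replicates 2 and 3 were the extremes, and all knockdown-labelled libraries fell between them. FLNA (ENSG00000196924.19; chromosome X, 154348524 to 154374634, minus strand) measured 2913, 2825 and 2329 CPM in the controls and 2931, 2871 and 2497 CPM in the knockdown-labelled libraries. Replicate 3 was the lowest of each group, and the groups overlapped.

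ACTB (ENSG00000075624.17; chromosome 7, 5526409 to 5563902, minus strand) had 6 genes above it by mean CPM and 14 by mean RPKM. Its values were 4867, 3901 and 3697 CPM in the controls and 4810, 4311 and 4116 CPM in the knockdown-labelled libraries, with replicate 1 the highest of both groups. ACTG1 (ENSG00000184009.13; chromosome 17, 81509413 to 81523847, minus strand) measured 2503, 2235 and 2005 CPM and 2995, 2173 and 2159 CPM in the same order. Knockdown-labelled replicate 1 was the highest, while replicates 2 and 3 of that group lay inside the control range. MYH9 (ENSG00000100345.23; chromosome 22, 36281280 to 36388010, minus strand), the motor of the set, measured 1197, 1142 and 1067 CPM in the controls and 1445, 1182 and 1135 CPM in the knockdown-labelled libraries. Replicate 1 of the labelled group again stood above the other 5 libraries.

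TLN1 (ENSG00000137076.22; chromosome 9, 35696948 to 35732195, minus strand) was the steadiest gene, at 358, 360 and 339 CPM in the controls and 372, 364 and 340 CPM in the knockdown-labelled libraries. Its highest library was 1.1 times its lowest, the smallest ratio of the 9 genes. VCL (ENSG00000035403.18; chromosome 10, 73995193 to 74121363, plus strand) measured 989, 897 and 1051 CPM and 1069, 1019 and 997 CPM, with the values interleaved between groups. ACTN1 (ENSG00000072110.16; chromosome 14, 68874128 to 68979440, minus strand) measured 795, 652 and 707 CPM in the controls and 827, 914 and 727 CPM in the knockdown-labelled libraries. Its 2 highest values were in the labelled group, but control replicate 1 lay above replicate 3 of that group.

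**Figure D1:**
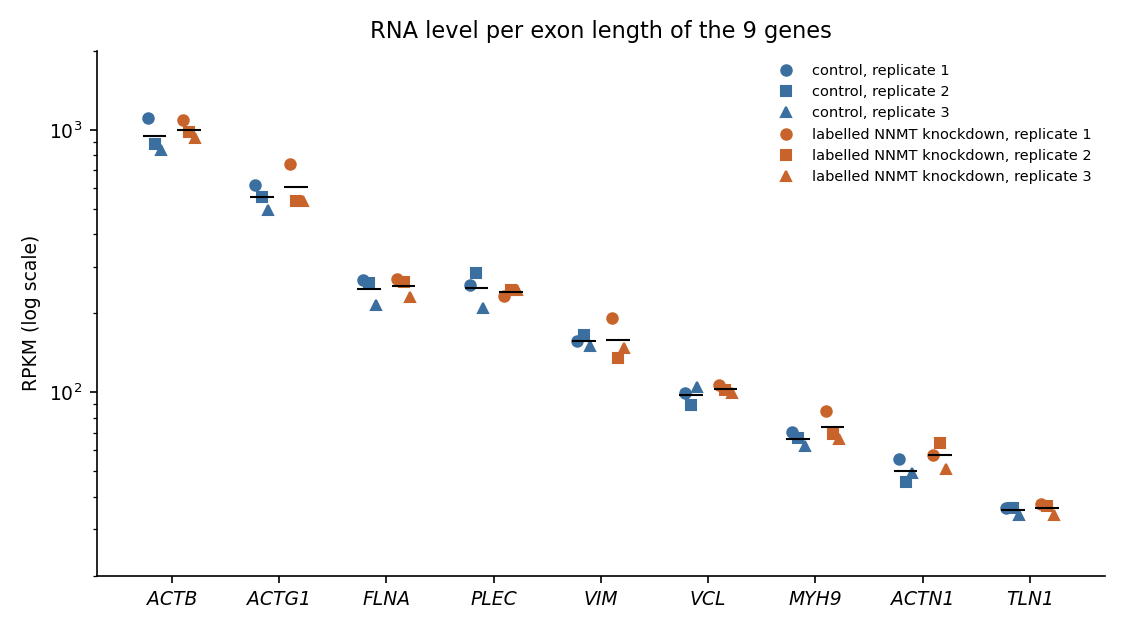
RNA level of the 9 genes in RPKM (reads per kilobase of merged exons per 1e6 reads on genes, log axis), with a point for each library and a bar at the mean of each group of 3. ACTB is the highest at a mean of 972 RPKM and TLN1 the lowest at 35.8 RPKM, and the groups overlap for every gene.

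Levels can be compared between genes only per length. Over the 6 libraries the mean level was 972 RPKM for ACTB, 579 for ACTG1, 251 for FLNA, 246 for PLEC, 158 for VIM, 100 for VCL, 70.1 for MYH9, 53.8 for ACTN1 and 35.8 for TLN1. Neighbours in this order were apart in their 6 library values except FLNA and PLEC (215 to 270 against 209 to 284 RPKM) and MYH9 and ACTN1 (62.6 to 84.8 against 45.5 to 63.8 RPKM). The merged exons of all annotated isoforms are much longer than the main mRNA of some genes, such as 14320 against 3779 bases for ACTN1 and 5176 against 1868 bases for VIM. Per length of the principal transcript, a choice made after the data were seen, ACTB and ACTG1 stayed in front at 2230 and 1039, VIM came next at 437, and ACTN1 moved ahead of VCL and MYH9 at 204 against 183 and 158 RPKM. Dividing all counted VIM reads by the 885 bases of its transcript that no other gene shares gave 922 ± 113 RPKM (SD, n = 6). The VIM values of 792 to 1119 RPKM overlapped the ACTG1 range of 889 to 1328 RPKM. Reads on other VIM exons were not removed, so this is not a level measured on those bases alone and can be too high.

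**Figure D2:**
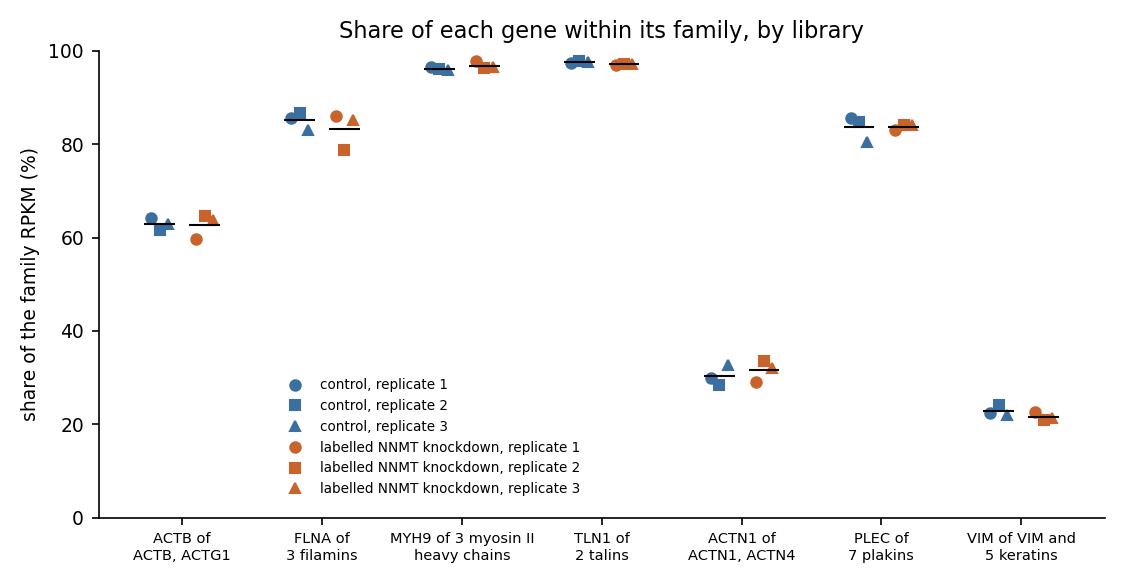
Share of each gene in the summed RPKM of its family, by library, with bars at the group means. MYH9 and TLN1 make up at least 95.9% and 96.9% of their families in every library, and the FLNA share dips to 78.7% in knockdown-labelled replicate 2.

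Within most families a single member carried most of the RNA. MYH9 took 95.9% to 97.8% of the RPKM of the 3 non-muscle myosin II heavy chains, the others being MYH10 and MYH14, and TLN1 took 96.9% to 97.8% of the talins. The 5 actin isoforms of muscle and other tissues together reached 0.947 to 1.74 CPM. Of the summed ACTB and ACTG1 RPKM, ACTB made up 62.9% ± 1.26 in control and 62.6% ± 2.65 in the knockdown-labelled libraries (SD, n = 3 each). PLEC took 80.5% to 85.5% of the RPKM of 7 plakins, and VIM took 21% to 24.2% of that of VIM and 5 simple epithelial keratins. Shares depended on the length used. ACTN1 took 28.5% to 33.5% of ACTN1 and ACTN4 per merged exon, but 55% to 60.7% per principal transcript. Per principal transcript the mean share went from 22.3% to 30.8% for VIM and from 62.8% to 68.3% for ACTB, from 83.7% to 76.7% for PLEC and from 84.2% to 77.1% for FLNA. The VIM share also leaves out the reads on the part of its transcript that antisense exons cover.

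FLNA took 83.1% to 86.6% of the filamins in control. In the knockdown-labelled libraries it took 86.1%, 78.7% and 85.2% in replicates 1, 2 and 3. In replicate 2 the muscle-type filamin gene FLNC, named after its values were seen, measured 419 CPM against 170 to 209 CPM in the other 5 libraries. The FLNC log2 fold change was 0.445 (SE 0.365, edgeR adjusted p = 0.999) and -0.0543 without that library. Exact two-sided permutation tests of the 7 family shares between groups gave p values of 0.1 to 1 and adjusted p values of 0.7 to 1. The smallest p that 3 against 3 libraries allow is 0.1, and the TLN1 share reached it (adjusted p = 0.7). That share was 97.3%, 97.8% and 97.5% in the controls and 96.9%, 97.1% and 97.2% in the knockdown-labelled libraries, so the groups did not overlap.

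The comparison between groups asked whether these genes differed in the knockdown-labelled libraries. Fold changes were small for all 9 genes, from 0.964 for PLEC to 1.15 for ACTN1. By the edgeR test 0 of 9 genes passed an adjusted p of 0.05, where 0% of the 20250 genes tested passed. At an unadjusted p under 0.05 there were also 0 of 9, against 4.03% of all genes tested, and the groups were apart in 0 of 9, against 9.17%. Without the filter on low counts, in DESeq2 and in limma-voom 0 of 9 passed as well, against 0.19%, 0.041% and 0% of the genes each tested. A positive log2 fold change was found for 8 of 9 genes, with a median of 0.0747, against 50.8% of all genes tested and a median of 0.00333.

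ACTN1 had the lowest p of the set, with 718 ± 72.1 CPM in the controls and 823 ± 93.6 CPM in the knockdown-labelled libraries (SD, n = 3), a log2 fold change of 0.198 (SE 0.116) and an edgeR adjusted p of 0.999. MYH9 averaged 1135 ± 65.3 and 1254 ± 167 CPM, a log2 fold change of 0.148 (SE 0.122). The actins stood at 0.124 (SE 0.157) for ACTG1 and 0.0889 (SE 0.139) for ACTB on the log2 scale. VIM averaged 814 ± 38.4 and 817 ± 153 CPM, a log2 fold change of 0.0106 (SE 0.137). The 95% intervals of the fold change ran between 0.816 and 1.24 for VIM, between 0.789 and 1.18 for PLEC, between 0.848 and 1.25 for FLNA and between 0.892 and 1.17 for TLN1. The widest was that of ACTG1, from 0.857 to 1.39, and all 9 intervals lay within 2-fold. Adjusted p values were 0.999 for each of the 9 genes. The labels call the 3 replicates of a condition independent biological replicates.

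**Figure D3:**
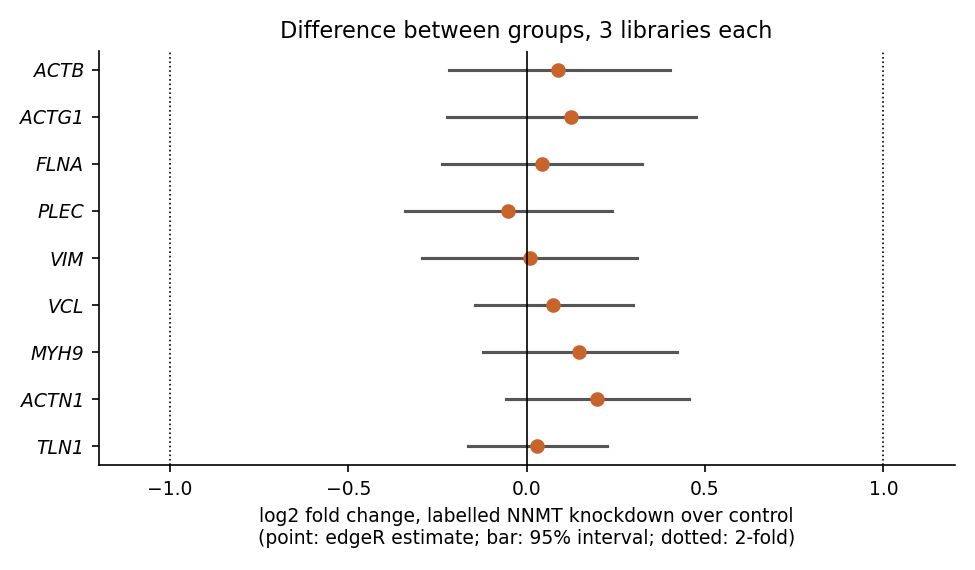
Estimated log2 fold change of the 9 genes between the knockdown-labelled libraries and control, with 95% intervals from edgeR and dotted lines at 2-fold. Every interval crosses 0 and stays inside 2-fold.

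Single libraries set the sign of 5 of the 9 estimates. Without knockdown-labelled replicate 1 the log2 fold change was -0.169 for VIM, -0.0176 for FLNA, -0.0677 for ACTG1 and -0.0155 for TLN1. Without control replicate 3 it was -0.0327 for VIM, -0.0605 for FLNA and -0.00969 for TLN1, and without control replicate 2 it was 0.0469 for PLEC. The estimate for ACTB fell to 0.00113 without control replicate 3. The MYH9 estimate was 0.0154 without knockdown-labelled replicate 1, while that of ACTN1 ranged from 0.126 to 0.288 over all 6 omissions.

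**Figure D4:**
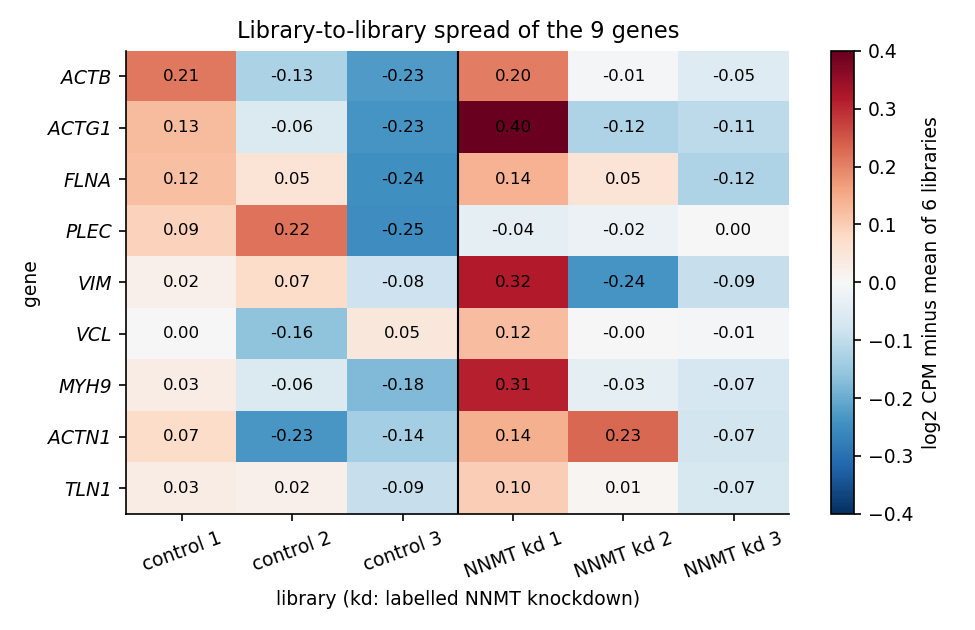
Level of each gene in each library as log2 CPM after scaling, minus the mean of the 6 libraries (rows: genes, columns: libraries, red high, blue low). Knockdown-labelled replicate 1 is mostly red and control replicate 3 mostly blue.

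Several of the genes had their extremes in the same libraries. Knockdown-labelled replicate 1 held the highest CPM of 6 of the 9 genes, where 17% of the 4697 genes with a mean of at least 50 CPM were highest there. Control replicate 3 held the lowest of 6 of the 9 genes, against 18.4% of those genes. On the scaled log2 scale, with each gene centred on its mean, the median of the 9 genes was 0.141 and -0.178 in these libraries. In the other 4 it lay between -0.0673 and 0.0725. The exceptions were PLEC, highest in control replicate 2, ACTB, highest in control replicate 1, ACTN1, highest in knockdown-labelled replicate 2, VIM, lowest in that same library, and VCL and ACTN1, lowest in control replicate 2.

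The libraries also differed by gene length. In control replicate 3 the median of 837 genes under 2000 exon bases was -0.109 and that of 3211 genes of 8000 bases or more was 0.0415. In knockdown-labelled replicate 1 they were 0.0485 and -0.0146. That library did not stand out, as they were 0.0464 and -0.0113 in control replicate 1 and 0.0748 and -0.00611 in knockdown-labelled replicate 2. In control replicate 2 they were -0.031 and 0.006, and in knockdown-labelled replicate 3 they were -0.0194 and -0.00193. Of the 9 genes, 6 have more than 8000 exon bases. In control replicate 3 their centred log2 levels were -0.248 for PLEC, -0.244 for FLNA, -0.178 for MYH9, -0.136 for ACTN1, -0.0908 for TLN1 and 0.0467 for VCL. The part of gene length in the library pattern was not tested. An offset for gene length left all 9 signs as they were and the largest log2 fold change at 0.212. Spread over the 6 libraries (SD of log2 CPM) was 0.227 for ACTG1, 0.189 for VIM, 0.177 for ACTB and for ACTN1 and 0.167 for MYH9. It was 0.154 for PLEC, 0.151 for FLNA, 0.0932 for VCL and 0.0684 for TLN1. The median over genes with a mean of at least 50 CPM was 0.112, so all but VCL and TLN1 lay above it.

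For each gene the closest profiles over the 6 libraries were taken among 4703 genes by the root-mean-square difference of centred log2 levels. The closest to ACTB was FBLIM1 (0.0303), which encodes a filamin-binding adhesion protein, followed by SHKBP1 (0.0395) and PIP4K2A (0.0465). The closest to ACTG1 was TPM4 (0.0417), which encodes a tropomyosin of the actin filament, followed by MAP3K6 (0.0604) and LINC00261 (0.0641). The closest to FLNA were KIF1C (0.0272), LMNA (0.0273), which encodes the nuclear intermediate filament proteins lamin A and C, and RPLP0 (0.0294). For the other genes only the closest profile is given. VCL lay closest to UGP2 (0.00888), TLN1 to EHMT1 (0.0159), MYH9 to SNX7 (0.0276), ACTN1 to LAMTOR1 (0.0285), PLEC to KDM6B (0.0361) and VIM to KLF5 (0.053). These are descriptions over 6 libraries, with no test.

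The surrounding machinery was described with lists chosen by function. None of the listed genes passed an adjusted p of 0.05 over the 20250 genes tested in edgeR with the filter on low counts. Without that filter, only the 9 genes, FLNC and the gene of lowest p in each of these lists were looked up. Of those, DSP and SYNPO passed. Of 12 tested genes of intermediate filaments outside keratins, 8 lay above 0 (median log2 fold change 0.0175). LMNA was the next highest per length after VIM (74.3 RPKM), at 602 ± 77.7 and 608 ± 54.3 CPM in the control and knockdown-labelled groups (SD, n = 3), and NES (nestin) and NEFL (neurofilament light chain) were present at 228 to 291 and 167 to 206 CPM. The muscle gene DES measured 0.198 to 3.77 CPM, and BFSP2 had no reads. KRT18 was the keratin of lowest p in the list of 5, at 122 ± 4.89 and 113 ± 1.62 CPM; its log2 fold change was -0.112 (SE 0.0757), at an edgeR adjusted p of 0.999.

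Of 7 plakins, 4 lay above 0, with a median of 0.0239. DSP, which encodes the desmosome plakin desmoplakin, had the lowest p, at 68.9 ± 17.5 CPM in the controls against 33 ± 8.48 CPM (SD, n = 3), or -1.06 (SE 0.237) as a log2 fold change. Its adjusted p was 0.999 in edgeR with the filter on low counts, 6e-06 in edgeR without that filter and 6.24e-05 in DESeq2. In limma-voom the DSP adjusted p was 0.984, and in edgeR with a filter of 1 CPM in 3 libraries 0.996. With any 1 library left out it was at least 0.427 in edgeR. PLEC, another plakin, had a log2 fold change of -0.0532 (SE 0.131), and the difference between the DSP and PLEC changes was not tested. Among 10 filamin genes and partners 8 lay above 0 (median 0.084), and ITGB1, the integrin subunit bound by filamin and talin, measured 2306 ± 155 and 2235 ± 123 CPM.

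Among 16 genes of non-muscle myosin II and its control, 7 lay above 0, with a median of -0.048. Its light chain genes MYL12B and MYL6 measured 301 ± 28.3 and 309 ± 26.6 CPM, and 342 ± 30.5 and 323 ± 10.5 CPM. PPP1R12A, the targeting subunit of myosin phosphatase, had the lowest p, with a log2 fold change of -0.166 (SE 0.0824, adjusted p = 0.999 in edgeR). Of 33 linkers between integrins and actin, 23 lay above 0 with a median of 0.0622, and 4 of 33 had an unadjusted p under 0.05, against 4.03% of all genes tested. That count was 2 of 21 among the monomer-binding, severing and capping genes, 1 of 22 among crosslinkers, 1 of 7 among plakins and 0 in each of the other 8 lists. PDLIM7, a PDZ and LIM domain protein gene, had the lowest p, at 174 ± 26.9 and 216 ± 15.9 CPM and a log2 fold change of 0.312 (SE 0.122, adjusted p = 0.999 in edgeR). ZYX, which encodes the adhesion protein zyxin, measured 610 ± 56.2 and 541 ± 89.3 CPM.

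Of 22 tested crosslinkers and bundlers, 15 lay above 0 (median 0.0578). SYNPO, which encodes the alpha-actinin partner synaptopodin, measured 62.3 ± 14.9 CPM in the controls and 94.2 ± 14.8 CPM in the knockdown-labelled libraries (SD, n = 3), a log2 fold change of 0.597 (SE 0.172). Its edgeR adjusted p was 0.999 with the filter on low counts and 1.69e-05 without it, and 0.134 in DESeq2. In limma-voom the SYNPO adjusted p was 0.984, and in edgeR with any 1 library left out it was at least 0.685. Of 21 genes for monomer binding, severing and capping, 13 lay above 0 (median 0.0441), and TMSB10 and TMSB4X, which encode the actin-sequestering thymosins, were the highest per length at 2881 and 1232 RPKM over the 6 libraries. TWF1, which encodes the monomer-binding protein twinfilin-1, measured 183 ± 10.7 and 157 ± 3.94 CPM, a log2 fold change of -0.221 (SE 0.0807, adjusted p = 0.999 in edgeR). Of 19 nucleation genes 12 lay above 0 (median 0.0234), of 8 ezrin, radixin and moesin linkers 7 did (median 0.0403), and SRF, MRTFA and MRTFB all did (median 0.0674). The shares above 0 compare with 50.8% over all genes tested.

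**Figure D5:**
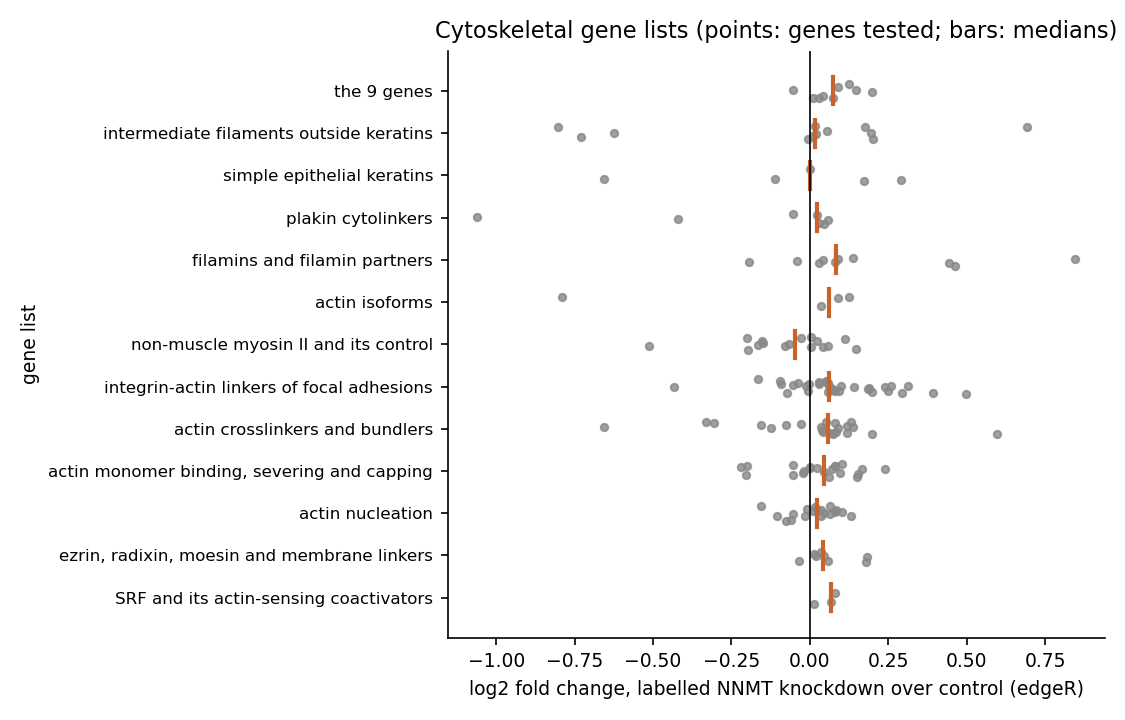
Log2 fold change of each tested gene in the cytoskeletal lists (points, with vertical jitter) and the median of each list (bars). List medians lie between -0.048 and 0.084.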

How the data were processed

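The authors deposited raw read counts per gene for 6 libraries, made with featureCounts 2.0.6 on hg38 alignments with GENCODE 44, per the file headers. Pairs with an unaligned mate and chimeric pairs were dropped, no strand option was set, and multi-mapping or multi-overlapping reads were not counted. The aligner was not given in the sources used here. Mates appear to be counted singly: 73.4% to 76.7% of counts from 2 to 10 were even, so counting precision is lower than the read number gives. All 62700 identifiers matched a symbol.

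Groups and replicate numbers came from the sample titles. CPM and RPKM were computed here from library totals and deposited exon lengths. The filter filterByExpr kept 20250 genes, libraries were scaled with TMM, and edgeR 4.0.16 (R 4.3.3) ran the quasi-likelihood test with robust dispersion, group as the sole term and Benjamini-Hochberg adjustment over all genes tested. Permutation tests used scipy 1.17.1. The pipeline was tested on simulated data. No 2 libraries agreed within sampling noise (chi-square per gene of at least 11.97).

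The 9 genes and all lists were chosen with earlier results of these data known. Named genes are the 9, NNMT, the 2 genes of highest RPKM and the 1 gene of lowest p in each list, the 3 closest profiles per gene (of which some are printed). NES, NEFL, DES, BFSP2, FLNC, the detected marker genes, the family members and the genes of the closing observations were added after their values were seen. Alternatives were other scalings and filters, DESeq2 1.42.0, limma-voom (limma 3.58.1), the replicate number as a block, halved counts, a length offset, and each library left out.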

Additional observations from a re-analysis of the deposited data

How the results depend on the processing

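The count of genes passing an adjusted p of 0.05 was 0 in edgeR with the filter on low counts, where 817 of 20250 had an unadjusted p under 0.05. It was 72 without the filter, 8 in DESeq2 and 0 in limma-voom, and 0 to 1 when each library was left out, the 1 gene arising without control replicate 3. None of the 9 genes passed under any of these alternatives. Log2 fold changes over the 6 omissions ranged from -0.169 to 0.117 for VIM, -0.177 to 0.0469 for PLEC, -0.0605 to 0.113 for FLNA, -0.0677 to 0.218 for ACTG1, -0.0155 to 0.0664 for TLN1 and -0.0543 to 0.662 for FLNC. The signs of ACTB, MYH9, VCL and ACTN1 held in all of them. The VIM estimate was -0.00708 in limma-voom and -0.00756 with the replicate block, and the cause was not tested. With the replicate block 0 genes passed. Deviations of same-numbered libraries correlated across genes at 0.0831, -0.226 and 0.4, so the numbers were not taken to pair the samples, and control replicate 1 correlated best with knockdown-labelled replicate 2 (0.374). By CPM with no length correction 4 of the 9 genes took another rank, and by principal transcript length 6 did. With 3 libraries a group, changes smaller than the intervals given could not be detected, and larger ones could be missed as well. The intervals are not adjusted for the number of genes tested. DSP, at a log2 fold change of -1.06, did not pass in edgeR with the filter on low counts (adjusted p = 0.999).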

Other observations

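Other genes of the adhesion and actin machinery share exons with neighbours, and reads overlapping several genes were not counted. All were named after their values were seen. ILK, which encodes the integrin-linked kinase of focal adhesions, measured 1.9 to 2.89 CPM, and 78.5% of its 3484 exon bases lie under exons of other genes, chiefly TAF10. Per length, ILK averaged 0.649 RPKM over the 6 libraries. Of the genes that encode its partners, PARVA, PARVB and LIMS1 averaged 3.67, 2.54 and 9.99 RPKM. LIMS2, another partner, lay below ILK at 0.307 RPKM with 2.24% of its exon bases shared. ARPC1A, which encodes a subunit of the Arp2/3 complex, measured 18.7 to 24.1 CPM with 58.6% of its exon bases shared. It averaged 10.9 RPKM over the 6 libraries. Of the other subunit genes, ACTR2, ACTR3, ARPC2, ARPC3, ARPC4 and ARPC5L averaged 119, 23.5, 35.9, 44.5, 21.6 and 13.1 RPKM. ARPC5 and ARPC1B lay below ARPC1A at 7.72 and 1.19 RPKM, with 0% and 25.7% of their exon bases shared. TAGLN, which encodes the smooth muscle protein transgelin, measured 4.03 to 9.15 CPM with 47.8% shared. The part of the shared exons in these values was not tested.

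Other genes of the lists ranged widely between libraries of the same group. TNS4, which encodes a tensin, measured 90.4, 25.7 and 44 CPM in control replicates 1, 2 and 3 and 68.1, 101 and 41.1 CPM in knockdown-labelled replicates 1, 2 and 3. LCP1, which encodes the bundling protein L-plastin, measured 30.8, 34.3 and 29 CPM and 10.5, 17.9 and 31.3 CPM in the same order. TRIP6, a zyxin-family gene, measured 21 CPM in knockdown-labelled replicate 2, the library with the high FLNC value, and 8.65 to 11.3 CPM in the others.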
